A study of Homo sapiens with 63 samples.

Results

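The genes described here are 32 transcripts of the G2 phase and of mitosis, chosen by name from a list of G2/M and mitosis genes, out of 58336 entries measured. All 32 passed the filter on low counts, with at least 315 counts in every library, so every one of them was tested among 19352 genes. They comprise 8 cyclins and regulators of the cyclin-dependent kinase CDK1, 7 mitotic kinases, 3 partners of the anaphase promoting complex, 9 kinesins and spindle factors, and 5 chromosome and kinetochore proteins. The cells were HEK293T, an established human embryonic kidney line, expressing the Halo protein tag, which binds chloroalkane ligands covalently. The 6 drug arms were ibufenac probe, ibufenac photocaged, ibufenac bolus, ibuprofen probe, ibuprofen photocaged and ibuprofen bolus, and the seventh arm was DMSO, the solvent control. Each arm had 3 libraries at 6 h, 12 h and 18 h, which makes 63 libraries in 21 groups. Ibuprofen, an arylpropionic acid, and ibufenac, an arylacetic acid that lacks ibuprofen's α-methyl group, are analgesics that inhibit cyclooxygenases, and ibufenac was withdrawn from use because of liver toxicity. By the series' design text, cells were given Ht-Pre-AG-ibuprofen, or its ibufenac counterpart Ht-Pre-AG-ibufenac, at 10 µM for 2 h, unbound compound was washed out, and light of 365 nm at 5 mW/cm2 for 3 min then freed the drug derivative that had been held on Halo. The labels do not say how the photocaged and the probe form differ, which arms were lit, what the bolus dose was, or whether replicates came from separate cultures. If they did not, the p-values below describe technical spread.

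Cells that enter G2 raise a shared set of transcripts whose products carry out the division. Cyclin B binds CDK1 and drives entry into mitosis. Aurora and polo kinases and kinesins build the spindle, and the checkpoint kinases BUB1, BUB1B and TTK hold back the anaphase promoting complex until chromosomes are attached. Many of these genes are repressed outside G2 and mitosis by the DREAM complex and activated by B-MYB and FOXM1, through a promoter element called the cell cycle genes homology region (CHR) and through CCAAT boxes bound by NF-Y. In a bulk sample, fewer cells of a phase and less RNA per cell cannot be told apart, and that holds for every result below.

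RefSeq promoters of build GRCh38.p14, each running from 250 bases before to 50 bases after the first listed start of a gene, were found for 27 of the 32 genes. Other starts of the same gene were not searched. The promoters were searched on both strands for the CHR spelled TTTGAA or TTCGAA and for CCAAT. One of the 2 CHR spellings was present in 17 of the 27 promoters (63.0%), against 16.6% of all 27305 promoters. At least 1 CCAAT was present in 22 of 27 (81.5%), against 35.7% of all promoters, and at least 2 were present in 16 of 27 (59.3%), against 11.3%. A CHR together with at least 2 CCAAT boxes occurred in 12 of 27 (44.4%), against 1.98% of all promoters. Of the 27 genes with a promoter sequence, the 6 with the smallest adjusted p in the averaged comparisons with DMSO are shown, so that the letters can be read beside the values of their transcripts below. They are printed in the direction of transcription, with the matched letters of either strand in capitals. They lie at chr5:138178862-138179161 on the plus strand (KIF20A), chr14:55191536-55191835 on the minus strand (DLGAP5), chr17:8210176-8210475 on the minus strand (AURKB), chr2:110678014-110678313 on the minus strand (BUB1), chr4:103198294-103198593 on the minus strand (CENPE) and chr1:214602945-214603244 on the plus strand (CENPF).
KIF20A: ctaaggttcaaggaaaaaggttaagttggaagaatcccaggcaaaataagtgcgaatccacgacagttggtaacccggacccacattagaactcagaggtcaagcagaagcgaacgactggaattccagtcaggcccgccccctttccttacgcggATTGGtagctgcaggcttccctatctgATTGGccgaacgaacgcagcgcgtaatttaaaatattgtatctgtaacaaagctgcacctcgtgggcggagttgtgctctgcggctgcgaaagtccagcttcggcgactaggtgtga
DLGAP5: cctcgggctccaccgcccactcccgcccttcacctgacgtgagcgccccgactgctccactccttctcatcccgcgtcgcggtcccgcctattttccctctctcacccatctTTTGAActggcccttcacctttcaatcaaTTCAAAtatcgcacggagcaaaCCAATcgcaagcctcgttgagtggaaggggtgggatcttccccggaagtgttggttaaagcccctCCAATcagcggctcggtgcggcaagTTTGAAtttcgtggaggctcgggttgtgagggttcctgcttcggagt
AURKB: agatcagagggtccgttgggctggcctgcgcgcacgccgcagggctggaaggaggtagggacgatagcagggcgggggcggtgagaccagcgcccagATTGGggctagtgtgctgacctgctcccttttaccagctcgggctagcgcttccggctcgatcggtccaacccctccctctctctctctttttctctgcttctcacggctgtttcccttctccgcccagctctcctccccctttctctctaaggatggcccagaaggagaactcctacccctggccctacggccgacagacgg
BUB1: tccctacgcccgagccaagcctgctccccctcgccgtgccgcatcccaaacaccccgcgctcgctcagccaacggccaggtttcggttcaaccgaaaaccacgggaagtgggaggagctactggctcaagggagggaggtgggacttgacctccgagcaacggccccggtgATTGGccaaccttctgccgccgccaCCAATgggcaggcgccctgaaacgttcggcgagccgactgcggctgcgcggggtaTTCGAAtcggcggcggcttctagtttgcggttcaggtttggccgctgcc
CENPE: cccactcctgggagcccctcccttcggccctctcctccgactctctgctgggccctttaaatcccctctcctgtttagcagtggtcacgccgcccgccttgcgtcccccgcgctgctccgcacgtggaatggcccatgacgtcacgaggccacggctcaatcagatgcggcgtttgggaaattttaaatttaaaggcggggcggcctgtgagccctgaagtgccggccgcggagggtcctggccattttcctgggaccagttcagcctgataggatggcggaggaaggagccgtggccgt
CENPF: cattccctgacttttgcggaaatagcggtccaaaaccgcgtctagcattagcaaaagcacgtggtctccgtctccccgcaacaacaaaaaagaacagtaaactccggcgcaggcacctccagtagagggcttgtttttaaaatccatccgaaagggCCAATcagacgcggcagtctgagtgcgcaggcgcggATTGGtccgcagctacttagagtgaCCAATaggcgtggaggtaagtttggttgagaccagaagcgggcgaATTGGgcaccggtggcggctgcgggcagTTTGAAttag
In KIF20A the letters hold 2 CCAAT boxes on the opposite strand, starting 94 and 67 bases before the listed start, and no CHR. DLGAP5 holds 3 copies of TTTGAA and 2 CCAAT boxes, AURKB 1 CCAAT box, BUB1 1 TTCGAA and 2 CCAAT boxes, and CENPF 1 TTTGAA and 4 CCAAT boxes. CENPE has none of the searched letters in this window. The KIF20A and AURKB windows lie wholly inside the gene as annotated in GENCODE release 29. That annotation begins at 138178719 for KIF20A and, on the minus strand, at 8210600 for AURKB. No CHR was found in either window, and the sequence outside them was not searched. A match is a string of letters, not a measured site.

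Library totals ran from 12139918 to 38377150 counts, with a median of 19605077. Of the lineage genes of this line, NEFL (median 42.7 CPM, counts normalised to library size) and NEFM (13.6) were present, LHX1 was low (1.32) and PAX2 was near or at 0. Markers of hepatocytes, blood cells and fibroblasts had medians of at most 3.10 CPM (COL1A1). DMSO 18 h replicate 3 and ibufenac bolus 18 h replicate 3 were left out together as an alternative. Their root mean square deviations from the group mean, 0.509 and 0.494 on the log2 scale, lay within the range of all libraries (0.321 to 0.597), and results at 18 h are given with and without them where they differ.

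The 32 transcripts were abundant in these cells. On the FPKM scale, which divides by transcript length and so allows genes to be compared, the median over 63 libraries spanned 12.6 for CDC25B to 138 for CKS2. Among the cyclins and CDK1 regulators, CKS2, a small subunit that binds cyclin-dependent kinases, was followed by CCNB1 (96.8 FPKM), which encodes cyclin B1, and by CDK1 itself (82.7). CCNA2 (cyclin A2), CCNF (cyclin F, which targets proteins for degradation) and CCNB2 (cyclin B2) had medians of 41.6, 33.6 and 28.5 FPKM. The phosphatases that activate CDK1, CDC25C and CDC25B, were the lowest members, at 13.9 and 12.6 FPKM. Among the kinases, AURKB, the catalytic subunit of the chromosomal passenger complex, had the highest level (76.1 FPKM), and BUB1B, a spindle checkpoint protein, the lowest (20.6). PLK1, the polo kinase, and AURKA, the Aurora kinase of spindle poles, had 39.9 and 32.5 FPKM. The partners of the anaphase promoting complex were its substrate PTTG1 (securin, 77.9 FPKM), its ubiquitin-conjugating enzyme UBE2C (71.7) and its activator CDC20 (66.5). Among the spindle genes, NUSAP1, a microtubule-binding protein, had the highest level (91.4 FPKM) and KIF20A, a kinesin of cytokinesis, the lowest (24.7). Of the chromosome proteins, BIRC5 (survivin, 89.8 FPKM) and TOP2A (topoisomerase II alpha, 87.3) were followed by CENPF, a kinetochore protein (51.3), MKI67, which encodes the proliferation antigen Ki-67 (22.9), and CENPE, a kinetochore kinesin (17.9).

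In DMSO, most of the 32 transcripts declined with time. Between 6 h and 18 h, 26 fell and none rose, with a median log2 fold change of -0.36 over the 32 genes, against 0.01 over all tested genes (17.5% of all genes were called). All 7 mitotic kinases and all 3 partners of the anaphase promoting complex fell, as did 5 of the 8 cyclins and CDK1 regulators, 7 of the 9 spindle genes and 4 of the 5 chromosome proteins. In the same comparison the lineage genes NEFL (1.06 ± 0.12, adjusted p = 1.26e-09 by edgeR) and NEFM (0.91 ± 0.30, adjusted p = 0.0292) rose. Of 5 fibroblast markers, 2 were tested and PDGFRB rose, with 0.198 to 0.836 CPM at 18 h and 0 to 0.0612 CPM at 6 h (adjusted p = 0.0242 by edgeR), while ALB, the hepatocyte marker that could be tested, was not called (adjusted p = 0.0793). The part of these markers in the decline was not tested. The mean log2 CPM of the 32 genes was 6.91 ± 0.0499 at 6 h, 6.74 ± 0.0363 at 12 h and 6.57 ± 0.0493 at 18 h in DMSO (SD, n = 3 libraries each). In this and the following paragraphs, differences are log2 fold changes ± their standard error, and adjusted p is from edgeR's quasi-likelihood test with Benjamini-Hochberg adjustment over all tested genes.

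In DMSO, BUB1, a kinase of the spindle checkpoint, had 186, 163 and 176 CPM at 6 h, 150.5, 163 and 157 at 12 h and 116, 126 and 118 at 18 h. Its 18 h libraries lay below all others, with a difference between 18 h and 6 h of -0.54 ± 0.07 (adjusted p = 2.83e-08) and between 18 h and 12 h of -0.39 ± 0.07 (adjusted p = 0.000439). KIF23, a kinesin of the central spindle, had 124, 114 and 107 CPM at 6 h, 91.4, 91.6 and 96.4 at 12 h and 73.9, 81.5 and 81.3 at 18 h. Its groups did not overlap at any of the 3 times, and it fell at both steps (-0.30 ± 0.07 between 12 h and 6 h, adjusted p = 0.00878, and -0.24 ± 0.07 between 18 h and 12 h, adjusted p = 0.0414). CCNB1 had 189, 189 and 183 CPM at 6 h, 162, 146 and 154 at 12 h and 131, 146 and 126 at 18 h. It fell between 6 h and 12 h (-0.28 ± 0.07, adjusted p = 0.00878) and over the whole course (-0.48 ± 0.07, adjusted p = 4.47e-07). ECT2, which activates the small GTPase RhoA for cytokinesis, had 145, 121 and 132 CPM at 6 h, 111, 119 and 128 at 12 h and 88.8, 99.7 and 95.2 at 18 h. It fell in the second step (-0.33 ± 0.07, adjusted p = 0.0043), and over the whole course it was -0.49 ± 0.07 (adjusted p = 2.01e-06).

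CCNA2 had 140.3, 133 and 125 CPM at 6 h, 107, 119 and 114 at 12 h and 88.5, 95.8 and 92.7 at 18 h in DMSO. It fell between 12 h and 18 h (-0.29 ± 0.08, adjusted p = 0.0277) and over the whole course (-0.52 ± 0.08, adjusted p = 5.31e-06). PLK1 had 108, 117 and 124 CPM at 6 h, 86.3, 90.2 and 83.6 at 12 h and 85.7, 77.5 and 57.0 at 18 h, the largest decline of the 32 genes between 6 h and 18 h (-0.66 ± 0.11, adjusted p = 9.39e-06). BIRC5, a subunit of the chromosomal passenger complex, had 259, 301 and 293 CPM at 6 h, 215, 204 and 210.0 at 12 h and 220.4, 211 and 187 at 18 h. It fell in the first step (-0.44 ± 0.08, adjusted p = 0.000285), and its 12 h and 18 h libraries overlapped. UBE2C had 72.7, 82.4 and 73.3 CPM at 6 h, 58.3, 60.5 and 58.0 at 12 h and 54.5, 61.4 and 55.6 at 18 h, and AURKA had 82.6, 81.7 and 69.9 CPM at 6 h, 58.8, 63.9 and 68.8 at 12 h and 51.0, 59.9 and 56.2 at 18 h. Both fell in the first step, UBE2C with -0.37 ± 0.09 (adjusted p = 0.00918) and AURKA with -0.29 ± 0.08 (adjusted p = 0.0327), and PLK1 did as well (-0.42 ± 0.11, adjusted p = 0.0148). CENPF had 634, 535 and 547 CPM at 6 h, 541, 548 and 606 at 12 h and 436, 413 and 405 at 18 h, and DLGAP5, which stabilises spindle microtubules, had 106, 101 and 94.2 CPM at 6 h, 99.3, 96.0 and 106 at 12 h and 82.1, 81.5 and 79.4 at 18 h. For both of these the 6 h and 12 h libraries overlapped and the 18 h libraries lay below (-0.43 ± 0.09, adjusted p = 0.00154, and -0.31 ± 0.09, adjusted p = 0.0246).

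Of the 32 genes, 9 fell between 6 h and 12 h in DMSO (3.82% of all genes called) and 8 fell between 12 h and 18 h (5.27%). The genes not called over the whole course were CCNB2, CDC25B, CDC25C, KIF2C, HMMR and MKI67. The count over the whole course was 17 to 24 without any 1 of the 6 libraries, with 17 without DMSO 18 h replicate 1. Both step counts fell whichever library was left out, a removal that also shrinks its group. The first was 3 to 5 without any 1 library and 17 with gene GC content and length trends removed. The second was 2 without DMSO 12 h replicate 3 and 3 without DMSO 18 h replicate 1. It was 4 to 5 without replicate 2 of DMSO at 12 h or replicates 2 or 3 of DMSO at 18 h.

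**Figure D1:**
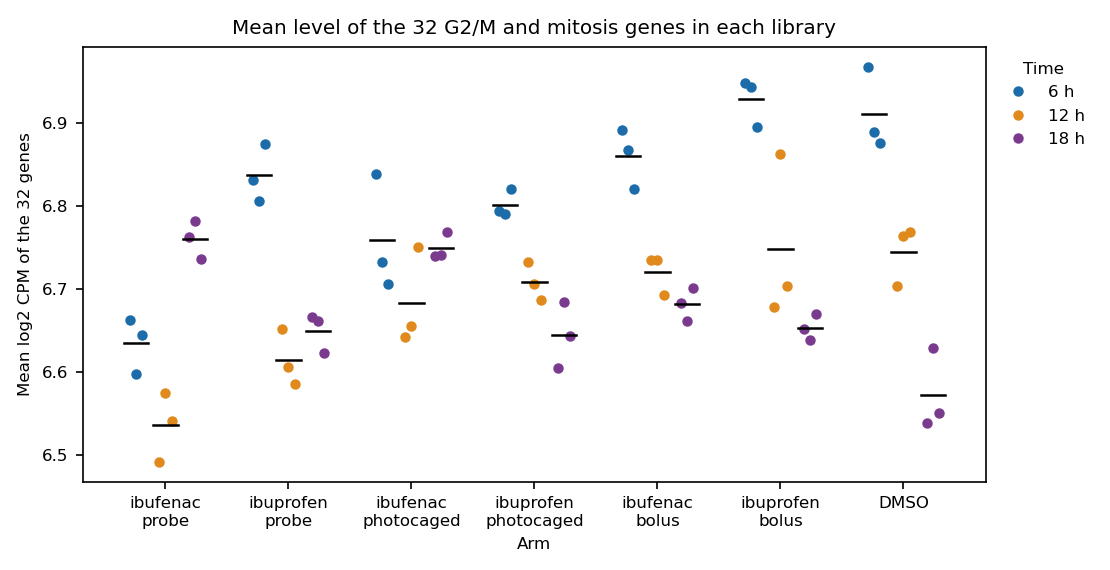
Mean log2 CPM of the 32 genes in each of the 63 libraries, by arm along the horizontal axis and coloured by time, with a bar at each group mean. DMSO declines over the 3 times to 6.57, while the ibufenac probe arm has 6.63 at 6 h, 6.54 at 12 h and 6.76 at 18 h.

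With ibufenac probe, the called members were lower than DMSO at 6 h and 12 h and higher than DMSO at 18 h. At 6 h, 20 of the 32 transcripts fell and none rose (12.7% of all genes called, 8.11% called lower). The median log2 fold change was -0.28 over the 32 genes, against -0.02 over all genes. Of the 32, 29 were negative, while 47.5% of all genes were positive. The 32 genes share the same libraries, so counts of signs here and below are not counts of independent results. All 5 chromosome and kinetochore proteins fell, as did 6 of 9 spindle genes, 4 of 7 kinases, 2 of 3 partners of the anaphase promoting complex and 3 of 8 cyclins and CDK1 regulators. In each of the 20, the 3 ibufenac probe libraries lay below the 3 DMSO libraries. The choice of genes by adjusted p makes such a gap likely, here and wherever called genes are said not to overlap. Its share over all genes was not counted in any comparison.

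At 6 h, KIF20A had 52.5, 49.8 and 56.6 CPM with ibufenac probe, against 92.6, 77.5 and 75.5 CPM in DMSO. This is a log2 fold change of -0.63 ± 0.09 (95% interval -0.80 to -0.45, adjusted p = 8.46e-07), or 0.648 times the DMSO level. AURKA had 56.5, 50.8 and 57.0 CPM with ibufenac probe and 82.6, 81.7 and 69.9 CPM in DMSO (-0.51 ± 0.08, adjusted p = 1.39e-05), and the groups were apart. BUB1 had 139, 135 and 135 CPM with ibufenac probe, against 186, 163 and 176 CPM in DMSO (-0.36 ± 0.07, adjusted p = 0.000145). DLGAP5 had 73.2, 70.6 and 77.0 CPM with ibufenac probe, against 106, 101 and 94.2 CPM in DMSO (-0.45 ± 0.09, adjusted p = 0.000182). For both, the highest treated library was below the lowest DMSO library. TOP2A, which untangles chromosomes before they separate, had 422, 403 and 381 CPM with ibufenac probe and 556, 496 and 502 CPM in DMSO (-0.37 ± 0.07, adjusted p = 0.000213). AURKB had 80.7, 75.2 and 80.0 CPM with ibufenac probe and 108, 106 and 107 CPM in DMSO (-0.45 ± 0.09, adjusted p = 0.000311). MKI67 had the largest fold change at this time, with 212, 198 and 183 CPM with ibufenac probe and 357, 302 and 300.2 CPM in DMSO (-0.70 ± 0.15, adjusted p = 0.00117).

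The other genes that fell at 6 h were CENPE, KIF23, CENPF, CCNB1, UBE2C, PTTG1, ECT2, KIF11, BUB1B, CKS2, NUSAP1, CCNA2 and BIRC5, with log2 fold changes of -0.53 for CENPE to -0.23 for NUSAP1. CDK1, PLK1 and CDC20 were not called, nor were CCNB2, CCNF, CDC25B, CDC25C, NEK2, TTK, KIF2C, TPX2 and HMMR. Without any 1 of the 6 libraries, 14 to 18 genes were called. With GC content and length trends removed, 12 were called, all lower, and the calls of CCNA2, CCNB1, CKS2, BUB1B, UBE2C, PTTG1, NUSAP1 and BIRC5 ended. KIF20A, AURKA, AURKB, BUB1, KIF23, DLGAP5, CENPE, CENPF, TOP2A and MKI67 passed the test in each of the 13 alternatives.

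At 12 h, 10 of the 32 genes fell with ibufenac probe and none rose (4.51% of all genes called), with a median log2 fold change of -0.18 and 31 of 32 negative. Of all genes, 50% were positive in that comparison. KIF20A had 47.6, 51.7 and 48.3 CPM with ibufenac probe, against 66.7, 83.2 and 75.7 CPM in DMSO (-0.61 ± 0.09, adjusted p = 4.73e-06). DLGAP5 had 63.2, 76.9 and 67.8 CPM with ibufenac probe and 99.3, 96.0 and 106 CPM in DMSO (-0.53 ± 0.09, adjusted p = 3.61e-05). CENPF had 399, 453 and 403 CPM with ibufenac probe and 541, 548 and 606 CPM in DMSO (-0.43 ± 0.09, adjusted p = 0.001). In these 3 genes the groups did not overlap. BUB1 had 117, 136 and 122 CPM with ibufenac probe and 150.5, 163 and 157 CPM in DMSO (-0.33 ± 0.07, adjusted p = 0.00147). CCNB1 had 124, 124 and 125 CPM with ibufenac probe and 162, 146 and 154 CPM in DMSO (-0.31 ± 0.07, adjusted p = 0.00258). CENPE, which carries chromosomes to the spindle equator, had 110.0, 114 and 94.9 CPM with ibufenac probe and 134, 147 and 151 CPM in DMSO (-0.44 ± 0.11, adjusted p = 0.0133). CKS2, TOP2A, AURKA and TPX2, the activator of AURKA, were the other 4, with log2 fold changes between -0.38 (CKS2) and -0.21 (TPX2). The count was 5 without DMSO 12 h replicate 3, 6 without DMSO 12 h replicate 2 and 3 in a fit of the compared groups only. KIF20A, DLGAP5 and CENPF passed in each of the 13 alternatives.

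At 18 h the sign was the opposite, and 8 of the 32 genes rose with ibufenac probe and none fell (2.69% of all genes called), with a median log2 fold change of 0.20 and 30 of 32 positive. Of all genes, 48.7% were positive in that comparison. The median at 18 h was positive in the other drug arms too: 0.18 with ibufenac photocaged, 0.12 with ibufenac bolus and 0.07 with ibuprofen probe. With ibuprofen photocaged and ibuprofen bolus it was 0.09 each. These comparisons share the same 3 DMSO libraries. The mean log2 CPM of the 32 genes at 18 h was lowest in DMSO (6.57), against 6.64 to 6.76 in the drug arms. The part of this DMSO level in the rise was not tested. TOP2A had 532, 585 and 541 CPM with ibufenac probe, against 428, 456 and 455 CPM in DMSO (0.31 ± 0.07, adjusted p = 0.00843). NEK2, a kinase that separates centrosomes, had 62.3, 60.5 and 54.4 CPM with ibufenac probe and 41.8, 48.7 and 46.8 CPM in DMSO (0.37 ± 0.09, adjusted p = 0.0148). CCNB1 had 157, 165 and 164 CPM with ibufenac probe and 131, 146 and 126 CPM in DMSO (0.27 ± 0.07, adjusted p = 0.0159). The treated libraries of all 3 genes lay above the DMSO libraries. NUSAP1 had 175, 184 and 199 CPM with ibufenac probe and 138, 164 and 149 CPM in DMSO (0.31 ± 0.08, adjusted p = 0.0162). CCNA2 had 111, 109 and 122 CPM with ibufenac probe and 88.5, 95.8 and 92.7 CPM in DMSO (0.31 ± 0.08, adjusted p = 0.0316). ECT2 had 112, 117 and 113 CPM with ibufenac probe and 88.8, 99.7 and 95.2 CPM in DMSO (0.27 ± 0.07, adjusted p = 0.0381). CENPF and KIF11, the kinesin that pushes spindle poles apart, were the other 2 (0.31 ± 0.09 and 0.30 ± 0.09). KIF20A was not called at 18 h, with 81.4, 79.1 and 81.6 CPM with ibufenac probe and 63.2, 62.9 and 74.9 CPM in DMSO (0.27 ± 0.09, adjusted p = 0.0876).

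The calls at 18 h were fewer whichever library was left out, a removal that also shrinks its group. Their number was 1 without DMSO 18 h replicate 1 or without ibufenac probe 18 h replicate 2, 2 without ibufenac probe 18 h replicate 3, 3 without DMSO 18 h replicate 3, and 4 without ibufenac probe 18 h replicate 1. It was also 3 without both DMSO 18 h replicate 3 and ibufenac bolus 18 h replicate 3, 1 with GC content and length trends removed, and 0 in a fit of the compared groups only. A fit of the compared groups only has fewer residual degrees of freedom than the fit of all 21 groups.

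**Figure D2:**
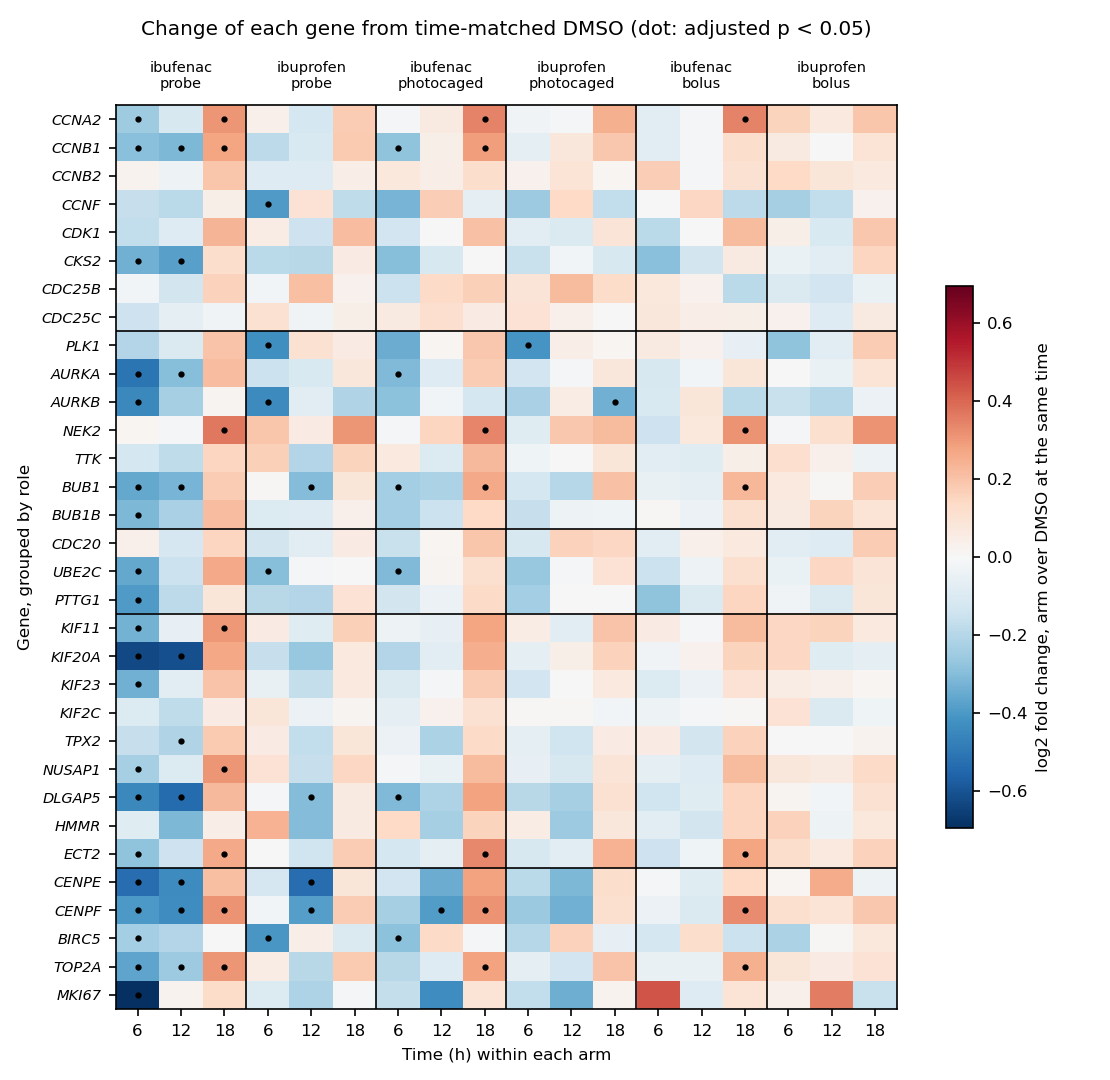
Log2 fold change from DMSO at the same time for the 32 genes (rows, grouped by role) in the 6 drug arms at 6, 12 and 18 h (columns), with a dot where the adjusted p is under 0.05. The ibufenac probe columns hold 20 lower calls at 6 h, 10 lower calls at 12 h and 8 higher calls at 18 h.

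With ibuprofen probe, 5 of the 32 genes fell at 6 h (11.4% of all genes called) and 4 fell at 12 h (1.97%). None was called at 18 h (1.78%), where 8 members reached an unadjusted p under 0.05 and 1 was called by DESeq2. At 6 h the median log2 fold change of the 32 genes was -0.04. BIRC5 had 206, 199.6 and 238 CPM with ibuprofen probe, against 259, 301 and 293 CPM in DMSO at 6 h (-0.41 ± 0.08, adjusted p = 0.000985). AURKB, which acts in the same complex as BIRC5, had 77.3, 73.3 and 85.4 CPM with ibuprofen probe and 108, 106 and 107 CPM in DMSO (-0.45 ± 0.09, adjusted p = 0.00119). PLK1 had 88.3, 76.3 and 94.97 CPM with ibuprofen probe and 108, 117 and 124 CPM in DMSO (-0.43 ± 0.11, adjusted p = 0.00808). In all of these the groups did not overlap. CCNF had 119, 131 and 151 CPM with ibuprofen probe and 173, 189.6 and 163 CPM in DMSO (-0.39 ± 0.11, adjusted p = 0.0134). UBE2C had 57.1, 61.5 and 67.5 CPM with ibuprofen probe and 72.7, 82.4 and 73.3 CPM in DMSO (-0.29 ± 0.09, adjusted p = 0.0249). Without 1 library the count at 6 h was 2 to 6, with 2 without ibuprofen probe 6 h replicate 2, 3 without replicate 1 of that group, and 3 without replicate 2 or replicate 3 of DMSO at 6 h. AURKB and BIRC5 passed in each of the 13 alternatives.

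At 12 h, CENPE had 97.2, 96.8 and 106 CPM with ibuprofen probe, against 134, 147 and 151 CPM in DMSO (-0.53 ± 0.11, adjusted p = 0.00615). BUB1 had 127, 126 and 129 CPM with ibuprofen probe and 150.5, 163 and 157 CPM in DMSO (-0.30 ± 0.07, adjusted p = 0.00878). CENPF had 422, 426 and 450.3 CPM with ibuprofen probe and 541, 548 and 606 CPM in DMSO (-0.39 ± 0.09, adjusted p = 0.00891). The 3 treated libraries of each lay below the DMSO libraries. DLGAP5 had 83.8, 77.7 and 82.5 CPM with ibuprofen probe and 99.3, 96.0 and 106 CPM in DMSO (-0.30 ± 0.09, adjusted p = 0.0493). The count at 12 h was 0 without DMSO 12 h replicate 3 or ibuprofen probe 12 h replicate 2, 2 without DMSO 12 h replicate 2, and 7 with DESeq2.

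With ibufenac photocaged, 6 of the 32 genes fell at 6 h (3.03% of all genes called), CENPF fell at 12 h (1.58%), and 7 rose at 18 h (2.86%). The median log2 fold change of the 32 genes was -0.15 at 6 h, -0.04 at 12 h and 0.18 at 18 h. At 6 h, CCNB1 had 154, 157 and 152 CPM with ibufenac photocaged, against 189, 189 and 183 CPM in DMSO (-0.28 ± 0.07, adjusted p = 0.0105). AURKA had 67.4, 60.7 and 60.7 CPM with ibufenac photocaged and 82.6, 81.7 and 69.9 CPM in DMSO (-0.31 ± 0.08, adjusted p = 0.0243). BIRC5 had 225, 222 and 254 CPM with ibufenac photocaged and 259, 301 and 293 CPM in DMSO (-0.28 ± 0.08, adjusted p = 0.0329). All 3 genes were below DMSO in every treated library. DLGAP5 had 89.5, 80.7 and 73.6 CPM with ibufenac photocaged and 106, 101 and 94.2 CPM in DMSO (-0.31 ± 0.09, adjusted p = 0.0336). BUB1 had 164, 145 and 136 CPM with ibufenac photocaged and 186, 163 and 176 CPM in DMSO, with overlapping groups (-0.24 ± 0.07, adjusted p = 0.0396). UBE2C had 66.4, 55.8 and 62.3 CPM with ibufenac photocaged and 72.7, 82.4 and 73.3 CPM in DMSO (-0.31 ± 0.09, adjusted p = 0.0453). The count at 6 h was 1 without ibufenac photocaged 6 h replicate 2, 2 without DMSO 6 h replicate 1 or 2, and 3 without DMSO 6 h replicate 3 or ibufenac photocaged 6 h replicate 1. It was 10 with GC content and length trends removed and 0 in a fit of the compared groups only. At 12 h, CENPF had 385, 445 and 466 CPM with ibufenac photocaged and 541, 548 and 606 CPM in DMSO (-0.39 ± 0.09, adjusted p = 0.00859), no gene was called without DMSO 12 h replicate 3 or without ibufenac photocaged 12 h replicate 1, and 2 were called without replicate 3 of the treated group.

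At 18 h, ECT2 had 119, 119 and 120.0 CPM with ibufenac photocaged, against 88.8, 99.7 and 95.2 CPM in DMSO (0.33 ± 0.07, adjusted p = 0.00683). CCNB1 had 169.7, 157 and 165 CPM with ibufenac photocaged and 131, 146 and 126 CPM in DMSO (0.29 ± 0.07, adjusted p = 0.011). CCNA2 had 121, 115 and 116 CPM with ibufenac photocaged and 88.5, 95.8 and 92.7 CPM in DMSO (0.34 ± 0.08, adjusted p = 0.0148). Each of these was above DMSO in every treated library. TOP2A had 555, 516 and 559 CPM with ibufenac photocaged and 428, 456 and 455 CPM in DMSO (0.28 ± 0.07, adjusted p = 0.0178). BUB1 had 152, 135 and 145 CPM with ibufenac photocaged and 116, 126 and 118 CPM in DMSO (0.26 ± 0.07, adjusted p = 0.0219). NEK2 had 59.3, 58.8 and 55.3 CPM with ibufenac photocaged and 41.8, 48.7 and 46.8 CPM in DMSO (0.34 ± 0.09, adjusted p = 0.0287). CENPF was the seventh (0.31 ± 0.09, adjusted p = 0.0339). The count was 1 without ibufenac photocaged 18 h replicate 1, 3 without DMSO 18 h replicate 1 or 3, and 4 without ibufenac photocaged 18 h replicate 3. It was 4 without both DMSO 18 h replicate 3 and ibufenac bolus 18 h replicate 3, 2 with GC content and length trends removed, and 0 in a fit of the compared groups only.

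With ibuprofen photocaged, PLK1 fell at 6 h (0.992% of all genes called), no gene was called at 12 h (0.677%, 9 members with an unadjusted p under 0.05, 1 called by DESeq2), and AURKB fell at 18 h (2.21%). PLK1 had 82.6, 86.2 and 94.1 CPM with ibuprofen photocaged at 6 h, against 108, 117 and 124 CPM in DMSO (-0.41 ± 0.11, adjusted p = 0.0491), and the call ended without any 1 of the 6 libraries. AURKB had 73.2, 73.8 and 67.3 CPM with ibuprofen photocaged at 18 h, against 93.0, 94.2 and 82.7 CPM in DMSO (-0.33 ± 0.09, adjusted p = 0.0343). That call ended without DMSO 18 h replicate 1 or 2 and without ibuprofen photocaged 18 h replicate 2 or 3, while DESeq2 called 6 genes at 18 h.

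Of the bolus arms, ibuprofen bolus gave no call at 6 h (0% of all genes called), 12 h (0.0103%) or 18 h (0.0723%), with 3, 3 and 7 genes at an unadjusted p under 0.05. DESeq2 also called no member in these comparisons, and 1 was called at 12 h without ibuprofen bolus 12 h replicate 1. Ibufenac bolus gave none at 6 h (0.0258%) or 12 h (0%), with 4 and 1 genes at an unadjusted p under 0.05 and none called by DESeq2, and 1 was called at 6 h without ibufenac bolus 6 h replicate 1. At 18 h, 6 genes rose (5.03%). CCNA2 had 115, 109.5 and 128 CPM with ibufenac bolus, against 88.5, 95.8 and 92.7 CPM in DMSO (0.35 ± 0.08, adjusted p = 0.0133). CENPF had 506, 485 and 582 CPM with ibufenac bolus and 436, 413 and 405 CPM in DMSO (0.33 ± 0.09, adjusted p = 0.0243). ECT2 had 117, 110.0 and 116 CPM with ibufenac bolus and 88.8, 99.7 and 95.2 CPM in DMSO (0.27 ± 0.07, adjusted p = 0.0267). The groups did not overlap for these. TOP2A had 527, 503 and 559.9 CPM with ibufenac bolus and 428, 456 and 455 CPM in DMSO (0.25 ± 0.07, adjusted p = 0.0335). NEK2 had 57.9, 56.1 and 56.6 CPM with ibufenac bolus and 41.8, 48.7 and 46.8 CPM in DMSO (0.31 ± 0.09, adjusted p = 0.0338). BUB1 had 143, 133 and 147 CPM with ibufenac bolus and 116, 126 and 118 CPM in DMSO (0.23 ± 0.07, adjusted p = 0.0371). No gene was called without ibufenac bolus 18 h replicate 3, with GC content and length trends removed, or in a fit of the compared groups only, and 1 was called without DMSO 18 h replicate 1 or 3 and 2 without ibufenac bolus 18 h replicate 1. The 18 h comparisons of the arms with DMSO share the same 3 DMSO libraries, as do those at 6 h and at 12 h. In 1 library of ibufenac bolus at 6 h, MKI67 stood far above its group, with 321, 317 and 661 CPM in the 3 libraries.

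An average over the 3 times pools comparisons whose signs differed between 6 h and 18 h. On average ibufenac probe had 9 genes lower than DMSO and none higher (13.2% of all genes called, 7.31% called lower), with 28 of 32 negative and a median of -0.09, against -0.01 over all genes. Of all genes, 48.0% were positive in this average. KIF20A had -0.32 ± 0.05 (adjusted p = 5.16e-06), with a lowest, median and highest of 47.6, 52.5 and 81.6 CPM over 9 ibufenac probe libraries and 62.9, 75.5 and 92.6 CPM over 9 DMSO libraries. DLGAP5 had 63.2, 76.9 and 98.4 CPM with ibufenac probe and 79.4, 96.0 and 106 CPM in DMSO (-0.25 ± 0.05, adjusted p = 0.000228). The ranges over 9 libraries overlapped for both, as they did for all 9 genes. BUB1 had 117, 135 and 139 CPM with ibufenac probe and 116, 157 and 186 CPM in DMSO (-0.17 ± 0.04, adjusted p = 0.00169). AURKB had 68.2, 80.7 and 94.4 CPM with ibufenac probe and 82.7, 93.3 and 108 CPM in DMSO (-0.22 ± 0.05, adjusted p = 0.00209). AURKA had 47.5, 57.0 and 69.2 CPM with ibufenac probe and 51.0, 63.9 and 82.6 CPM in DMSO (-0.20 ± 0.05, adjusted p = 0.00303). CENPE had 94.9, 110.0 and 139.9 CPM with ibufenac probe and 102, 136 and 161 CPM in DMSO (-0.25 ± 0.07, adjusted p = 0.00505). CENPF (-0.17 ± 0.05), CKS2 (-0.20 ± 0.06) and BIRC5 (-0.15 ± 0.05) also fell, with adjusted p of 0.0136, 0.015 and 0.0247. The 6 genes with per-library ranges passed in each of the 25 alternatives, and 7 to 11 genes were called without any 1 library. Among the marker genes of other cells, COL1A1 of fibroblasts, at 0.787 to 4.38 CPM with ibufenac probe, also fell on average (-0.60 ± 0.21, adjusted p = 0.0436). PDGFRB, the other fibroblast marker that was tested, was not called (0.25 ± 0.57, adjusted p = 0.854). Of the lineage genes, NEFL fell (-0.27 ± 0.07, adjusted p = 0.00386) and NEFM was not called (-0.20 ± 0.18, adjusted p = 0.538). The part of these markers in the result was not tested.

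The averages over the 3 times of CCNB1, CDK1, PLK1, TOP2A and MKI67 were read in every arm, called or not. With ibufenac probe, CCNB1 had -0.11 ± 0.04 (adjusted p = 0.055), TOP2A -0.10 ± 0.04 (0.0861), MKI67 -0.18 ± 0.09 (0.187), PLK1 -0.03 ± 0.06 (0.805) and CDK1 -0.01 ± 0.04 (0.942). None of these 5 averages was called in any of the 6 drug arms, although CCNB1, PLK1, TOP2A and MKI67 had calls at single times, given above. Their averages lay between 0.04 ± 0.04 (CDK1) and -0.11 ± 0.09 (MKI67) with ibuprofen probe, between 0.02 ± 0.04 (CDK1) and -0.17 ± 0.09 (MKI67) with ibufenac photocaged, and between 0.07 ± 0.04 (CCNB1) and -0.16 ± 0.09 (MKI67) with ibuprofen photocaged. In the bolus arms they lay between 0.15 ± 0.09 (MKI67) and 0.01 ± 0.04 (CCNB1) with ibufenac, and between 0.08 ± 0.09 (MKI67) and -0.06 ± 0.06 (PLK1) with ibuprofen.

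In the other averaged comparisons few members were called. Ibuprofen probe had 3 (8.43% of all genes called): AURKB fell, with 72.2, 81.6 and 88.0 CPM with ibuprofen probe and 82.7, 93.3 and 108 CPM in DMSO as lowest, median and highest (-0.24 ± 0.05, adjusted p = 0.0014). BIRC5 fell as well, with 183, 206 and 238 CPM with ibuprofen probe and 187, 215 and 301 CPM in DMSO (-0.15 ± 0.05, adjusted p = 0.0283). NEK2 rose, with 49.1, 56.6 and 70.0 CPM with ibuprofen probe and 41.8, 48.7 and 59.7 CPM in DMSO (0.19 ± 0.05, adjusted p = 0.018). With GC content and length trends removed, 7 were called, all lower. Only AURKB of these 3 passed in each of the 25 alternatives, and the count was 1 without DMSO 18 h replicate 1. Ibufenac photocaged had 1 gene (7.49%): NEK2 rose, with 52.2, 55.3 and 66.0 CPM with ibufenac photocaged and 41.8, 48.7 and 59.7 CPM in DMSO (0.16 ± 0.05, adjusted p = 0.0471), a call that ended in 15 of 25 alternatives. Among the libraries left out singly it held without DMSO 6 h replicate 1, DMSO 12 h replicate 3, DMSO 18 h replicate 2, ibufenac photocaged 6 h replicate 2 or 3, 12 h replicate 1 or 18 h replicate 3, and without ibufenac photocaged 6 h replicate 3 the count was 3. With GC content and length trends removed, 4 other calls, all lower, took its place. Ibuprofen photocaged had 1 (4.28%): AURKB fell, with 67.3, 89.7 and 95.7 CPM with ibuprofen photocaged and 82.7, 93.3 and 108 CPM in DMSO (-0.17 ± 0.05, adjusted p = 0.0426), a call that ended in 16 of 25 alternatives, among them the removal of any 1 library other than DMSO 18 h replicate 3 or ibuprofen photocaged 6 h replicate 3. Ibufenac bolus (0.0103%) and ibuprofen bolus (0.0258%) had none by edgeR or DESeq2, with 1 and 9 genes at an unadjusted p under 0.05.

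The 2 drugs were compared within each form, at each of 3 times and on average, which makes 12 comparisons. Of these, 4 had called members, and the probe forms at 6 h had 18, while each of the other 3 had 1. At 6 h, 18 of the 32 genes were lower with ibufenac probe than with ibuprofen probe, and none was higher (23.6% of all genes called, 10.7% called lower). The median was -0.24, against -0.05 over all genes. TOP2A had 422, 403 and 381 CPM with ibufenac probe, against 543, 518 and 546 CPM with ibuprofen probe (-0.41 ± 0.07, 95% interval -0.56 to -0.27, adjusted p = 3.38e-05). BUB1 had 139, 135 and 135 CPM with ibufenac probe, against 179, 174 and 175 CPM with ibuprofen probe (-0.37 ± 0.07, adjusted p = 7.67e-05). KIF20A had 52.5, 49.8 and 56.6 CPM with ibufenac probe, against 70.5, 71.4 and 77.7 CPM with ibuprofen probe (-0.47 ± 0.09, adjusted p = 0.000113). The 2 groups did not overlap in any of these. DLGAP5 had 73.2, 70.6 and 77.0 CPM with ibufenac probe and 108, 95.4 and 95.4 CPM with ibuprofen probe (-0.44 ± 0.09, adjusted p = 0.000195). KIF11 had 123, 123 and 115 CPM with ibufenac probe and 159, 160.4 and 152 CPM with ibuprofen probe (-0.38 ± 0.09, adjusted p = 0.000941). CENPF had 452, 436 and 414 CPM with ibufenac probe and 565, 561 and 566 CPM with ibuprofen probe (-0.38 ± 0.09, adjusted p = 0.000975). The other 12 were NUSAP1, AURKA, KIF23, MKI67, ECT2, CENPE, CCNA2, TPX2, HMMR, TTK, CDC25C and CDK1, the last of which turned to 0.02 with GC content and length trends removed. The count was 13 to 18 without any 1 library, but with GC content and length trends removed it was 7, with 1 higher and 6 lower, and the median became -0.08. TOP2A, BUB1, KIF20A, DLGAP5 and MKI67 passed in each of the 13 alternatives.

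AURKB, BIRC5 and PLK1 did not pass between the probe forms at 6 h. AURKB had 80.7, 75.2 and 80.0 CPM with ibufenac probe and 77.3, 73.3 and 85.4 CPM with ibuprofen probe, and the 95% interval of the difference was -0.18 to 0.18. For BIRC5 the interval was 0.01 to 0.33 and for PLK1 0.01 to 0.45, so missing the threshold does not show that the 2 compounds act alike on these genes. At 12 h KIF20A was the 1 gene called (1.92% of all genes), with 47.6, 51.7 and 48.3 CPM with ibufenac probe and 65.8, 60.3 and 61.5 CPM with ibuprofen probe (-0.35 ± 0.09, adjusted p = 0.026). No gene was called without any 1 of the libraries other than ibufenac probe 12 h replicate 3, whose removal gave 3. At 18 h no member was called (0% of all genes, 6 members at an unadjusted p under 0.05, and none by DESeq2). The median was 0.13, and the interval for KIF20A was 0.02 to 0.37. Averaged over the times, KIF20A was lower with ibufenac probe (2.82% of all genes called), with 47.6, 52.5 and 81.6 CPM with ibufenac probe and 60.3, 70.5 and 77.7 CPM with ibuprofen probe as lowest, median and highest (-0.20 ± 0.05, adjusted p = 0.0149). That call ended without ibuprofen probe 12 h replicate 1 and with GC content and length trends removed, and 2 genes were called without ibufenac probe 12 h replicate 2, ibuprofen probe 6 h replicate 2 or 3, or ibuprofen probe 18 h replicate 3.

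Between ibufenac photocaged and ibuprofen photocaged no member was called at 6 h, 12 h or 18 h (0% of all genes at each) or on average (0.0362%). Unadjusted p was under 0.05 for 3 members at 6 h, 0 at 12 h, 2 at 18 h and 0 on average, and DESeq2 called none. At 18 h all 32 differences were positive, with a median of 0.10, while 51.1% of all genes were positive. The 32 genes share the same libraries, so these signs are not independent of each other. On average, the interval was -0.13 to 0.03 for CCNB1, -0.16 to 0.05 for KIF20A and -0.08 to 0.08 for TOP2A. Between the boluses, ECT2 was lower with ibufenac at 6 h (2.3% of all genes called), with 131, 106 and 122 CPM with ibufenac bolus and 142, 146 and 145 CPM with ibuprofen bolus (-0.27 ± 0.07, adjusted p = 0.0418). No gene was called at 12 h (0.0362%), at 18 h (0%) or on average (0%), with 8, 5 and 2 members at an unadjusted p under 0.05 and none by DESeq2. The ECT2 call ended without ibufenac bolus 6 h replicate 3 or any 1 of the ibuprofen bolus libraries at 6 h, and 4 genes were called without ibufenac bolus 6 h replicate 1. Without ibuprofen bolus 12 h replicate 1, 5 genes were called at 12 h.

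**Figure D3:**
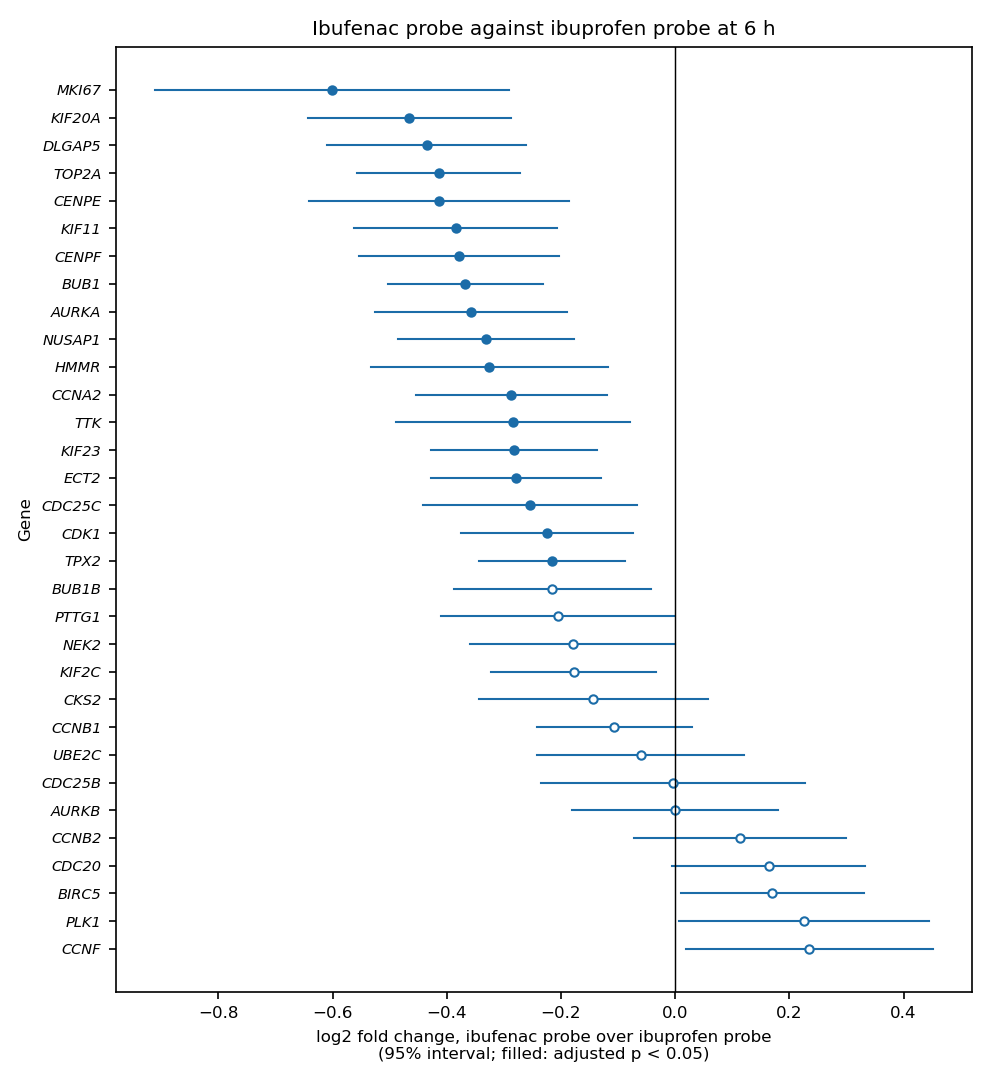
Log2 fold change of ibufenac probe over ibuprofen probe at 6 h for each of the 32 genes with its 95% interval, and filled points for adjusted p under 0.05. The 18 called genes are all lower with ibufenac probe, from MKI67 (-0.60) to TPX2 and CDK1 (-0.22).

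The probe form was also compared with the photocaged form within each drug, averaged over the times. With ibufenac, KIF20A was lower in the probe arm (2.68% of all genes called), with 47.6, 52.5 and 81.6 CPM with ibufenac probe and 65.5, 73.4 and 84.4 CPM with ibufenac photocaged as lowest, median and highest (-0.31 ± 0.05, adjusted p = 9.47e-05). DLGAP5 was lower as well, with 63.2, 76.9 and 98.4 CPM with ibufenac probe and 73.6, 89.5 and 106 CPM with ibufenac photocaged (-0.17 ± 0.05, adjusted p = 0.0451). Over the 32 genes 30 differences were negative, with a median of -0.09, while 47.9% of all genes were positive. KIF20A passed in each of the 25 alternatives, and DLGAP5 lost its call in 19 of them, among them the removal of any 1 library other than ibufenac probe 6 h replicate 3, ibufenac probe 12 h replicate 2, ibufenac photocaged 6 h replicate 3 or ibufenac photocaged 12 h replicate 1. With ibuprofen no member was called between the 2 forms (0.0982% of all genes, 4 members at an unadjusted p under 0.05, none by DESeq2), and the interval for KIF20A was -0.27 to -0.06.

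Within the arms, the change between 6 h and 18 h differed in extent and sign. With ibuprofen bolus 20 genes fell and none rose (23.4% of all genes called), and with ibufenac bolus 12 fell and HMMR rose (19.2%). With ibuprofen photocaged 9 fell (12.2%), and with ibuprofen probe 13 fell (14.4%). With ibufenac photocaged 3 rose and 1 fell (10.1%), and with ibufenac probe 9 rose and 2 fell (22.9%). The median over the 32 genes was -0.27, -0.16, -0.19, -0.19, -0.03 and 0.09 in that order of arms.

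With ibufenac probe, KIF20A had 52.5, 49.8 and 56.6 CPM at 6 h, 47.6, 51.7 and 48.3 at 12 h and 81.4, 79.1 and 81.6 at 18 h. It rose between 6 h and 18 h (0.61 ± 0.09, adjusted p = 6.09e-07), and its 18 h libraries lay above all others of the arm. TOP2A had 422, 403 and 381 CPM at 6 h, 435, 456 and 423 at 12 h and 532, 585 and 541 at 18 h (0.46 ± 0.07, adjusted p = 1.94e-06). DLGAP5 had 73.2, 70.6 and 77.0 CPM at 6 h, 63.2, 76.9 and 67.8 at 12 h and 90.8, 98.4 and 94.9 at 18 h (0.36 ± 0.09, adjusted p = 0.00127). MKI67 had 212, 198 and 183 CPM at 6 h, 386, 279 and 268 at 12 h and 297, 295 and 274 at 18 h (0.55 ± 0.15, adjusted p = 0.00637). In all 4 genes the 18 h libraries were above the 6 h libraries. CDC25B, a phosphatase that activates CDK1, had 32.4, 31.2 and 36.4 CPM at 6 h, 37.9, 30.4 and 33.3 at 12 h and 47.6, 43.2 and 37.1 at 18 h (0.35 ± 0.11, adjusted p = 0.0188), and CENPE had 102, 97.6 and 106 CPM at 6 h, 110.0, 114 and 94.9 at 12 h and 129.6, 139.9 and 120.1 at 18 h (0.35 ± 0.11, adjusted p = 0.0188). KIF11 and AURKA also rose (0.26 ± 0.09 and 0.24 ± 0.08), as did CENPF (0.26 ± 0.09), whose sign turned to -0.00142 with GC content and length trends removed. The 2 genes that fell were CDC20, which activates the anaphase promoting complex, and BIRC5. CDC20 had 126, 135 and 142 CPM at 6 h, 100.2, 90.3 and 106 at 12 h and 109, 104 and 101 at 18 h (-0.36 ± 0.08, adjusted p = 0.00104), and BIRC5 had 234, 242 and 248 CPM at 6 h, 175, 174 and 199 at 12 h and 213, 200.1 and 205 at 18 h (-0.23 ± 0.08, adjusted p = 0.0299). The count was 5 without ibufenac probe 6 h replicate 2 and 7 without ibufenac probe 18 h replicate 2. With GC content and length trends removed, the median of all genes moved to -0.11, against 0.02 in the reported fit, and the calls were 4 higher and 6 lower, in place of 9 higher and 2 lower. KIF20A, TOP2A, DLGAP5 and CDC20 passed in each of the 13 alternatives.

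With ibufenac photocaged, CDC25B had 30.7, 26.5 and 34.6 CPM at 6 h, 43.3, 39.0 and 40.0 at 12 h and 37.7, 47.3 and 43.2 at 18 h (0.48 ± 0.11, adjusted p = 0.00288). TOP2A had 483, 459 and 418 CPM at 6 h, 466, 484 and 524 at 12 h and 555, 516 and 559 at 18 h (0.26 ± 0.07, adjusted p = 0.0106), and DLGAP5 had 89.5, 80.7 and 73.6 CPM at 6 h, 75.3, 87.9 and 96.3 at 12 h and 94.3, 95.04 and 106 at 18 h (0.27 ± 0.09, adjusted p = 0.0317). KIF23 went the other way, with 110.0, 105 and 105 CPM at 6 h, 87.3, 89.3 and 100.2 at 12 h and 94.9, 80.8 and 92.5 at 18 h (-0.26 ± 0.07, adjusted p = 0.0149). In none of these 4 did the 6 h and 18 h libraries overlap. The calls numbered 2 without replicate 3 of ibufenac photocaged at 6 h or at 18 h, and 3 higher and 5 lower with GC content and length trends removed.

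With ibuprofen bolus, KIF23 had 118, 121 and 116 CPM at 6 h, 88.3, 110.1 and 88.0 at 12 h and 77.0, 74.6 and 87.4 at 18 h (-0.57 ± 0.07, adjusted p = 3.65e-08). CCNB1 had 198, 192 and 196 CPM at 6 h, 161, 163 and 137 at 12 h and 142, 141 and 147 at 18 h (-0.45 ± 0.07, adjusted p = 1.75e-06). BUB1 had 186, 181 and 183 CPM at 6 h, 137, 168 and 167 at 12 h and 139, 130.4 and 136 at 18 h (-0.44 ± 0.07, adjusted p = 2.29e-06). In each of these the 18 h libraries lay below those at 6 h. ECT2 had 142, 146 and 145 CPM at 6 h, 112, 143 and 121 at 12 h and 103, 107 and 107 at 18 h (-0.45 ± 0.07, adjusted p = 8.13e-06). CCNA2 had 147, 159 and 138 CPM at 6 h, 108, 140.3 and 108 at 12 h and 113, 98.5 and 105 at 18 h (-0.49 ± 0.08, adjusted p = 1.79e-05). KIF20A had 97.3, 88.7 and 85.1 CPM at 6 h, 76.3, 67.4 and 68.8 at 12 h and 63.2, 62.6 and 66.8 at 18 h (-0.49 ± 0.09, adjusted p = 3.18e-05), with a decline that its libraries shared. The other 14 that fell were AURKA, TTK, BUB1B, CDC20, UBE2C, KIF11, KIF2C, TPX2, NUSAP1, DLGAP5, CENPE, CENPF, TOP2A and MKI67.

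With ibuprofen probe, BUB1 had 179, 174 and 175 CPM at 6 h, 127, 126 and 129 at 12 h and 124, 132 and 125 at 18 h (-0.47 ± 0.07, adjusted p = 1.42e-06). KIF23 had 109, 113 and 110.0 CPM at 6 h, 86.4, 79.0 and 84.1 at 12 h and 82.3, 76.7 and 88.6 at 18 h (-0.42 ± 0.07, adjusted p = 3.47e-05). CCNA2 had 142, 133 and 134 CPM at 6 h, 115, 95.7 and 102 at 12 h and 107, 107 and 97.9 at 18 h (-0.39 ± 0.08, adjusted p = 0.00076). The 18 h libraries of these were again below those at 6 h. BUB1B had 87.4, 80.8 and 86.4 CPM at 6 h, 68.8, 74.6 and 66.3 at 12 h and 61.8, 69.3 and 64.7 at 18 h (-0.38 ± 0.09, adjusted p = 0.0015). ECT2 had 132, 128 and 138 CPM at 6 h, 111, 109 and 105 at 12 h and 112, 108 and 101 at 18 h (-0.31 ± 0.07, adjusted p = 0.0025). TPX2 had 208, 195 and 193 CPM at 6 h, 162, 149.5 and 155 at 12 h and 162, 171 and 165 at 18 h (-0.26 ± 0.06, adjusted p = 0.00328). TTK, CDC20, KIF11, KIF2C, NUSAP1, CENPF and AURKA fell as well. KIF20A was not called in this arm, with 70.5, 71.4 and 77.7 CPM at 6 h, 65.8, 60.3 and 61.5 at 12 h and 72.2, 75.0 and 63.7 at 18 h (-0.06 ± 0.09, adjusted p = 0.726).

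With ibuprofen photocaged, KIF23 had 107, 102 and 104 CPM at 6 h, 98.1, 94.2 and 87.7 at 12 h and 86.9, 81.6 and 80.1 at 18 h (-0.33 ± 0.07, adjusted p = 0.000987). BUB1B had 79.2, 73.5 and 90.1 CPM at 6 h, 79.3, 69.0 and 69.7 at 12 h and 58.3, 64.7 and 64.3 at 18 h (-0.38 ± 0.09, adjusted p = 0.00185). BIRC5 had 248, 249 and 247 CPM at 6 h, 234, 239 and 229.8 at 12 h and 211, 211 and 172 at 18 h (-0.33 ± 0.08, adjusted p = 0.00346). All 3 were lower in every 18 h library than in any at 6 h. AURKB had 85.8, 93.2 and 95.3 CPM at 6 h, 89.7, 95.7 and 92.8 at 12 h and 73.2, 73.8 and 67.3 at 18 h (-0.36 ± 0.09, adjusted p = 0.00416). CCNB1 had 184, 176 and 177 CPM at 6 h, 172, 156 and 161 at 12 h and 160.4, 149 and 149 at 18 h (-0.23 ± 0.07, adjusted p = 0.0173). AURKA had 70.5, 70.3 and 72.8 CPM at 6 h, 61.9, 63.8 and 63.8 at 12 h and 58.0, 61.3 and 57.3 at 18 h (-0.28 ± 0.08, adjusted p = 0.0197). CCNA2, CKS2 and BUB1 were the other 3. Leaving out replicate 3 of ibuprofen photocaged at 6 h or at 18 h gave 5 calls, and removing GC content and length trends gave 21, with a median of all genes of -0.10.

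With ibufenac bolus, PLK1 had 115, 119 and 130.3 CPM at 6 h, 82.7, 98.1 and 84.2 at 12 h and 72.7, 79.2 and 59.7 at 18 h (-0.78 ± 0.11, adjusted p = 4.21e-07), the largest decline in that arm. BIRC5 had 278, 278 and 228 CPM at 6 h, 229.9, 230.2 and 224 at 12 h and 192, 205 and 161 at 18 h (-0.49 ± 0.08, adjusted p = 8.15e-06). CCNF had 175, 201 and 152 CPM at 6 h, 151, 151 and 149 at 12 h and 122, 139 and 103 at 18 h (-0.54 ± 0.11, adjusted p = 0.000231). In none of these did the 6 h and 18 h libraries overlap. BUB1B had 92.2, 88.1 and 93.1 CPM at 6 h, 67.6, 80.5 and 68.8 at 12 h and 69.1, 71.0 and 65.8 at 18 h (-0.41 ± 0.09, adjusted p = 0.000416). KIF23 had 108, 106 and 108 CPM at 6 h, 88.6, 89.7 and 93.8 at 12 h and 84.0, 80.0 and 90.3 at 18 h (-0.34 ± 0.07, adjusted p = 0.000445). CCNB1 had 185, 188 and 158 CPM at 6 h, 151, 163 and 144 at 12 h and 152, 137 and 149 at 18 h (-0.28 ± 0.07, adjusted p = 0.00196). AURKA, AURKB, BUB1, CDC20, TPX2 and MKI67 fell as well, MKI67 with the high 6 h library named above. HMMR, a protein of spindle microtubules, rose, with 70.3, 68.6 and 63.5 CPM at 6 h, 75.2, 79.4 and 82.0 at 12 h and 84.8, 80.0 and 96.0 at 18 h (0.37 ± 0.10, adjusted p = 0.00807). With GC content and length trends removed, 21 genes were called, all lower, and HMMR was not among them, and a fit of the compared groups only called 1.

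**Figure D4:**
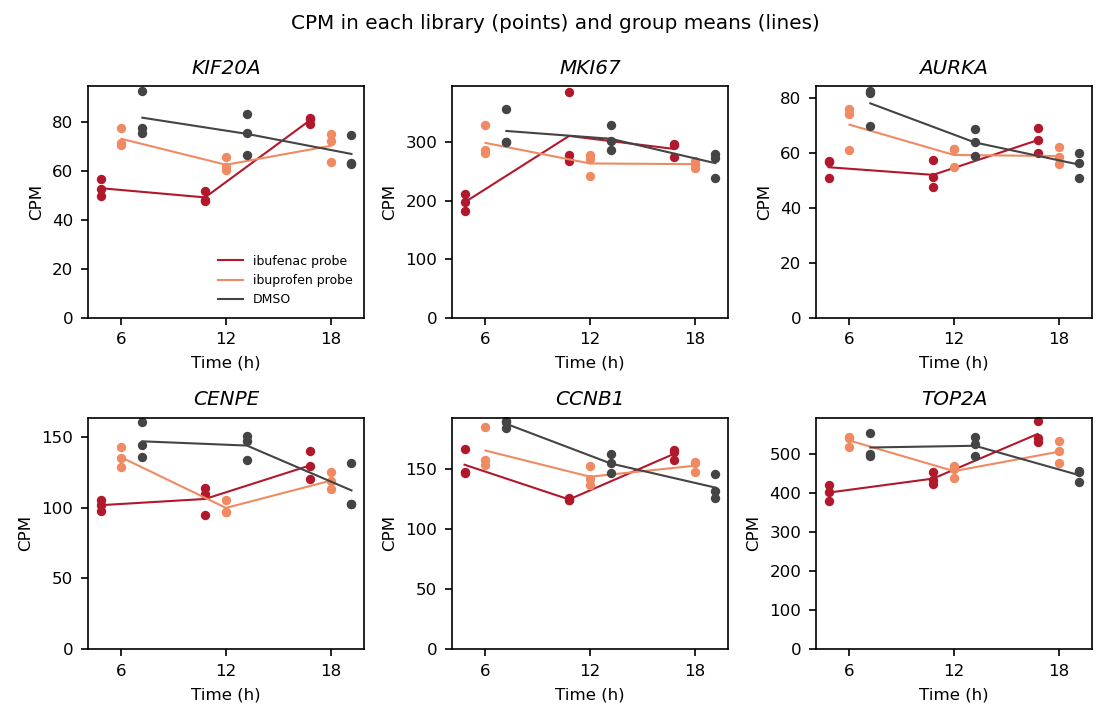
CPM of KIF20A, MKI67, AURKA, CENPE, CCNB1 and TOP2A in each library of ibufenac probe, ibuprofen probe and DMSO at 6, 12 and 18 h. KIF20A in the ibufenac probe arm is at 47.6 to 56.6 CPM at 6 h and 12 h and at 79.1 to 81.6 CPM at 18 h, while DMSO is at 62.9 to 92.6 CPM throughout.

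Whether the time course differed between arms was tested for each gene by the interaction of arm and time, with 12 degrees of freedom. It passed for 23 of the 32 genes, against 22.8% of all tested genes. The smallest adjusted p belonged to KIF20A (7.38e-07), CCNB1 (1.81e-05), TOP2A (2.65e-05), CENPF (4e-05), BUB1 (7.52e-05) and DLGAP5 (7.74e-05). It did not pass for CKS2, HMMR, CDC20, CDC25B, TTK, PTTG1, KIF2C, CCNB2 and CDC25C. The number was 21 to 26 without any 1 library and 18 with GC content and length trends removed.

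Which arm departed from DMSO was then measured by the difference between the change from DMSO at 18 h and that at 6 h, a comparison added after the data were seen. With ibufenac probe it was positive for all 32 genes, against 52.7% of all genes. Among the 32, 21 passed (7.98% of all genes called), with a median of 0.50, against 0.03 over all genes. Of the 32, 31 were positive with ibufenac photocaged (median 0.32), 28 with ibuprofen photocaged (0.20) and 28 with ibuprofen probe (0.14). With ibufenac bolus 24 were positive (0.18), and with ibuprofen bolus 23 (0.05). In the arms other than ibufenac probe, 49.6% to 54.3% of all genes were positive. In the ibufenac probe arm, KIF20A had 0.89 ± 0.12 (95% interval 0.64 to 1.14, adjusted p = 1.44e-06), the gap between a called lower value at 6 h and a value not called at 18 h. TOP2A had 0.67 ± 0.10 (adjusted p = 5.59e-06). AURKA had 56.5, 50.8 and 57.0 CPM at 6 h, 47.5, 51.3 and 57.3 at 12 h and 64.8, 69.2 and 59.9 at 18 h with ibufenac probe (0.72 ± 0.12, adjusted p = 2.86e-05). CCNB1 had 147, 147 and 166 CPM at 6 h, 124, 124 and 125 at 12 h and 157, 165 and 164 at 18 h there (0.56 ± 0.10, adjusted p = 5.8e-05). In both genes the 18 h libraries were above those at 12 h. CENPF had 452, 436 and 414 CPM at 6 h, 399, 453 and 403 at 12 h and 491, 551 and 513 at 18 h (0.71 ± 0.12, adjusted p = 7.95e-05), and BUB1 139, 135 and 135 CPM at 6 h, 117, 136 and 122 at 12 h and 131, 136 and 139 at 18 h (0.53 ± 0.10, adjusted p = 0.000137). In DMSO each of the 6 genes fell between 6 h and 18 h. The count was 19 to 21 without any 1 of the 12 libraries and 16 with GC content and length trends removed, and 15 of the 21 genes passed in each of the 19 alternatives.

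With ibufenac photocaged 7 genes passed, all positive (0.636% of all genes called), with a median of 0.32. CCNB1 had 154, 157 and 152 CPM at 6 h, 156, 154 and 167 at 12 h and 169.7, 157 and 165 at 18 h with ibufenac photocaged (0.57 ± 0.10, adjusted p = 0.000513), and BUB1 had 164, 145 and 136 CPM at 6 h, 127, 130.1 and 147 at 12 h and 152, 135 and 145 at 18 h (0.50 ± 0.10, adjusted p = 0.00322). The 6 h and 18 h libraries of BUB1 overlapped in this arm, and in DMSO both genes fell. DLGAP5 (0.58 ± 0.12, adjusted p = 0.00891) and TOP2A (0.47 ± 0.10, adjusted p = 0.0106) have their libraries given above. CENPF had 509, 489.9 and 461 CPM at 6 h, 385, 445 and 466 at 12 h and 554, 482 and 523 at 18 h (0.55 ± 0.12, adjusted p = 0.0178), and ECT2 had 126, 129 and 111 CPM at 6 h, 108, 111 and 121 at 12 h and 119, 119 and 120.0 at 18 h (0.46 ± 0.10, adjusted p = 0.019). AURKA was the seventh (0.48 ± 0.12, adjusted p = 0.0301). The count was 2 without ibufenac photocaged 6 h replicate 3, 3 without DMSO 6 h replicate 1, and 0 in a fit of the compared groups only. With ibufenac bolus ECT2 passed (0.672% of all genes called), with 131, 106 and 122 CPM at 6 h, 118, 113 and 118 at 12 h and 117, 110.0 and 116 at 18 h (0.42 ± 0.10, adjusted p = 0.0442), and the count was 0 to 4 without any 1 library. It was 0 without replicate 1 or 3 of DMSO at 6 h, replicate 1 of DMSO at 18 h, replicate 3 of ibufenac bolus at 6 h, or replicate 1 or 3 of ibufenac bolus at 18 h. It was 2 without DMSO 18 h replicate 3, 3 without ibufenac bolus 18 h replicate 2 and 4 without ibufenac bolus 6 h replicate 1. None passed with ibuprofen probe (0.0362%), ibuprofen photocaged (0.0568%) or ibuprofen bolus (0%), where 5, 11 and 4 members reached an unadjusted p under 0.05 and the DESeq2 counts were 0, 2 and 0. Without ibuprofen probe 6 h replicate 3, 1 gene passed with ibuprofen probe. The same 6 DMSO libraries enter all 6 of these differences.

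**Figure D5:**
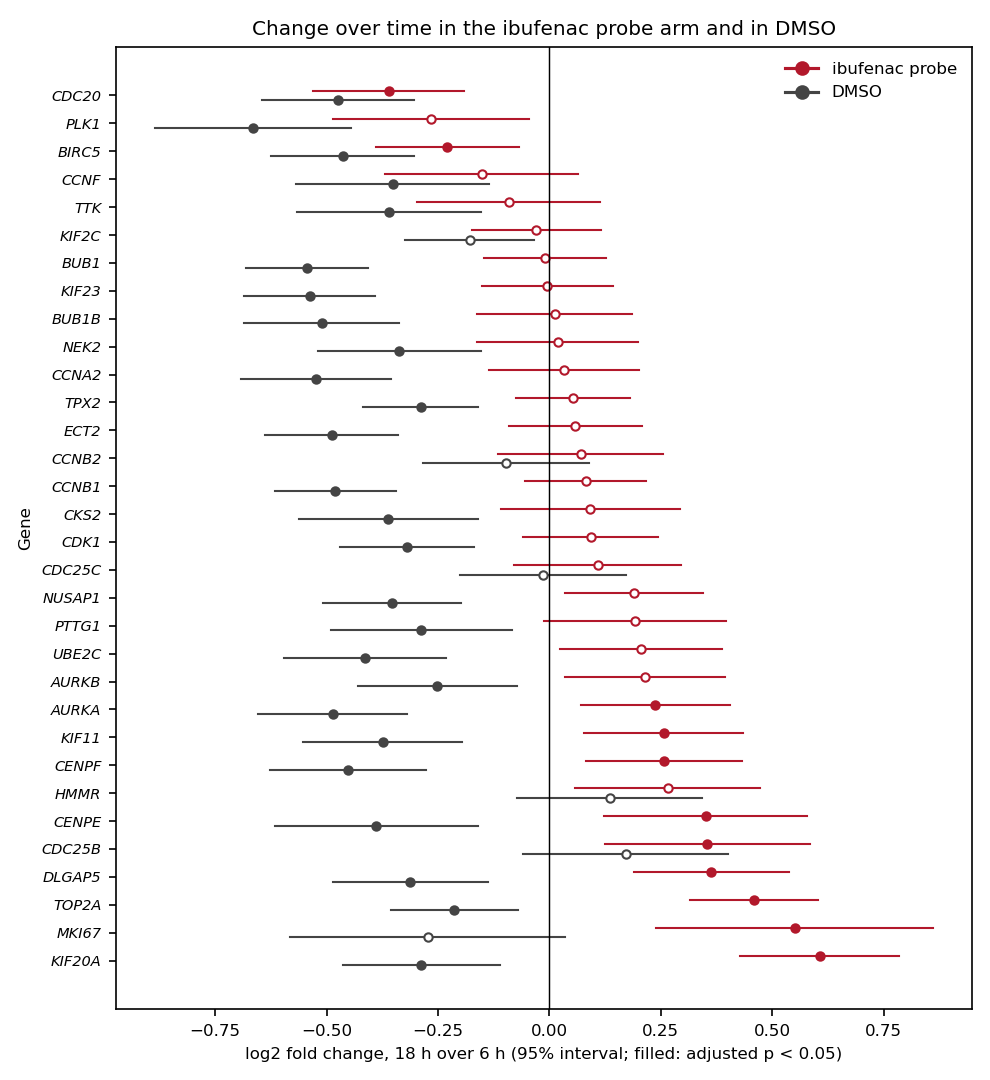
Log2 fold change between 18 h and 6 h with its 95% interval for each of the 32 genes, in ibufenac probe and in DMSO, with filled points for adjusted p under 0.05. In DMSO 26 genes are called lower, and in ibufenac probe 9 are called higher and 2 lower.

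Other genes of the same pathways were read from lists that share no gene with the 32. Of 62 further mitotic genes, 11 fell and 3 rose with ibufenac probe on average, with a median of -0.06 (7.31% of all genes were called lower and 5.87% higher). At single times, 17 fell and 2 rose at 6 h (8.11% of all genes lower, 4.63% higher), 9 fell at 12 h (2.67% lower), and 6 rose at 18 h (1.8% higher). Those with the largest averages were PSRC1 (-0.24 ± 0.08, adjusted p = 0.0267), TROAP (-0.23 ± 0.06), ASPM, which focuses spindle poles (-0.22 ± 0.04, adjusted p = 0.000114), and the lamin gene LMNB1 (-0.21 ± 0.03) among those that fell. HMGB2, a chromatin protein (0.25 ± 0.05, adjusted p = 0.000522), the kinase gene PBK (0.21 ± 0.06) and the kinetochore gene SKA1 (0.21 ± 0.06) rose. TROAP also fell with ibufenac photocaged (-0.25 ± 0.06), ibuprofen probe (-0.25 ± 0.06) and ibuprofen photocaged (-0.28 ± 0.06), and SKA1 rose in the same arms (0.24 ± 0.06, 0.24 ± 0.06 and 0.21 ± 0.06), all against the same DMSO libraries. In DMSO, 29 of the 62 fell between 6 h and 18 h and none rose (17.5% of all genes called, 10% called lower).

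The counts of the next 3 lists are read against 13.2% of all genes called with ibufenac probe on average and 8.43% with ibuprofen probe. Of 18 regulators of the mitotic programme, TFDP1, the partner of E2F factors, fell with ibufenac probe (-0.13 ± 0.04, adjusted p = 0.00747), and none rose. With ibuprofen probe E2F4, a subunit of DREAM, fell (-0.27 ± 0.05, adjusted p = 0.000726), TFDP1 fell (-0.14 ± 0.04) and BTRC rose (0.14 ± 0.05). Of 20 checkpoint and inhibitor genes, CDKN2C, an inhibitor of the G1 kinases, fell with ibufenac probe (-0.46 ± 0.08, adjusted p = 2.93e-05), as did CCNG2 (-0.21 ± 0.07), and GADD45A (0.27 ± 0.08, adjusted p = 0.0101) and the checkpoint kinase gene CHEK1 (0.24 ± 0.04, adjusted p = 5.84e-05) rose. CHEK1 also rose with ibufenac photocaged (0.17 ± 0.04) and ibuprofen probe (0.13 ± 0.04). With ibuprofen probe PKMYT1, a kinase that inhibits CDK1, fell (-0.45 ± 0.13, adjusted p = 0.0227), as did PLK3 (-0.38 ± 0.11). The list of 15 genes of the anaphase promoting complex held its subunits and the activator FZR1. Of these, ANAPC15, ANAPC7, CDC23 and ANAPC1 fell with ibufenac probe, with ANAPC7 at -0.18 ± 0.03 (adjusted p = 8.93e-05). ANAPC16 rose (0.22 ± 0.05, adjusted p = 0.000792).

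The 46 genes of the G1/S transition gave 3 lower calls and 1 higher with ibufenac probe on average, with a median of -0.04 (13.2% of all genes called). CCND1, which encodes cyclin D1, had the largest decline (-0.72 ± 0.10, adjusted p = 3.24e-07), FEN1 (-0.16 ± 0.04) and POLD3 (-0.14 ± 0.04) fell, and RFC2 rose (0.14 ± 0.04). With ibuprofen probe 5 fell, among them CCND1 (-0.53 ± 0.10, adjusted p = 0.000334), and 1 rose (8.43% of all genes called). At 6 h with ibufenac probe, 3 of the 46 fell and 4 rose (12.7% of all genes called). Between 6 h and 18 h, 24 of the 46 fell and 2 rose with ibufenac probe (22.9% of all genes called), and 13 fell and none rose in DMSO (17.5%).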

How the data were processed

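Total RNA depleted of ribosomal RNA was sequenced from stranded libraries, per the labels' protocols. The sources used here name no aligner, genome build or counting program. The authors deposited expected counts per gene, of which 22.6% of the values of at least 1 were not whole at a tolerance of 1e-06, and these were rounded to whole numbers. The authors' FPKM values per gene, also deposited, were used only to compare levels between genes.

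Genes were tested with edgeR 4.0.16 (R 4.3.3, limma 3.58.1) by its quasi-likelihood test, with 1 mean for each of 21 groups over 63 libraries, TMM scaling (factors 0.908 to 1.11) and filterByExpr with a minimum count of 10. This left 19352 genes, 42 residual degrees of freedom, and a common biological variation coefficient of 0.159. Calls had a Benjamini-Hochberg adjusted p under 0.05 within each comparison. CPM values are scaled by TMM, and log2 CPM has a prior count of 2. The exception is the median CPM of lineage and marker genes, which is scaled by library total alone. An averaged comparison takes the mean of the differences at 3 times. Totals of 12139918 to 38377150 counts gave each of the 32 genes at least 315 counts per library, so spread between libraries limits precision more than counting does.

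In each comparison the text names up to 6 called genes per direction by smallest adjusted p, and up to 4 per direction of other lists by largest change in the averaged comparisons. The members, lists and tests were chosen with earlier results of these data known. The 6 differences between the changes from DMSO at 18 h and 6 h were added after the data were seen. Scripts were tested on simulated counts. For ibufenac probe against DMSO at 6 h, 5% of changes planted at 1.25 times were found. At 1.5 times it was 6.67% and at 2 times 56.9%, with 4 false calls. The planted genes were drawn from all tested genes, with the same spread for each. The spread of the 32 genes was not simulated, so these shares do not carry over to them. Alternatives were RLE scaling, DESeq2 1.42.0, no low-count filter, a replicate block, a fit of the compared groups only, each library left out in turn, 2 libraries left out together, and removal of each library's trend with gene GC content and length, known for all 32 members. No 2 libraries of the same group agreed within sampling noise, and pairs across groups were not checked. Some marker genes are not reported here.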

Additional observations from a re-analysis of the deposited data

Results flagged for a closer look

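The 23 genes below were picked out because their time course differed between the 7 arms by the interaction test of edgeR, adjusted over all tested genes, of which 22.8% passed. Among the spindle genes the adjusted p was 7.38e-07 for KIF20A, 7.74e-05 for DLGAP5, 0.000876 for ECT2, 0.00176 for KIF11, 0.00307 for KIF23, 0.00358 for NUSAP1 and 0.00492 for TPX2. Among the chromosome proteins it was 2.65e-05 for TOP2A, 4e-05 for CENPF, 7.95e-05 for CENPE, 0.000208 for MKI67 and 0.00243 for BIRC5. Among the cyclins and CDK1 regulators it was 1.81e-05 for CCNB1, 0.0032 for CCNF, 0.00804 for CCNA2 and 0.0093 for CDK1. Among the kinases it was 7.52e-05 for BUB1, 0.000837 for AURKA, 0.000857 for AURKB, 0.00313 for PLK1, 0.0126 for BUB1B and 0.0412 for NEK2. Of the partners of the anaphase promoting complex, UBE2C passed with 0.0155. KIF20A, with the smallest of these, had a change between 18 h and 6 h of 0.61 ± 0.09 with ibufenac probe and -0.29 ± 0.09 in DMSO. The groups have 3 libraries each, so no single library was tested for standing apart, although 1 library of ibufenac bolus at 6 h had MKI67 at 661 CPM and the others of its group at 317 and 321 CPM.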

How the results depend on the processing

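The counts of members called are those most sensitive to the processing, and the cause of these shifts was not tested. Of 3602 combinations of a called gene with an alternative, 2856 kept direction and side of the threshold, 744 kept direction and lost the threshold, and 2 changed sign. The 2 were CDK1 in ibufenac probe against ibuprofen probe at 6 h (0.0239, adjusted p = 0.897 by edgeR) and CENPF in ibufenac probe at 18 h against 6 h (-0.00142, adjusted p = 0.994 by edgeR), both with GC content and length trends removed. The replicate numbers gave little sign of pairing the libraries, and whether they pair them by design is not known. Over 630 pairs of same-numbered libraries the median correlation of deviations was 0.00176, with 12 pairs over 0.1 and a highest of 0.207. Over 1260 pairs of other numbers 19 were over 0.1, with a highest of 0.152. A fit with the replicate number as a block moved the counts below and no others beyond 1.5 times.

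With DESeq2, 1 member was called in ibuprofen photocaged against DMSO at 12 h and ibuprofen probe against DMSO at 18 h, 2 in ibuprofen photocaged against DMSO on average, ibufenac photocaged against DMSO on average, ibufenac probe against ibuprofen probe on average and the 18 h change less the 6 h change of ibuprofen photocaged from DMSO. It gave 3 in ibufenac bolus against ibuprofen bolus at 6 h, 4 in ibufenac photocaged against DMSO at 12 h and the 18 h change less the 6 h change of ibufenac bolus from DMSO, 6 in ibuprofen photocaged against DMSO at 18 h. It gave 7 in ibuprofen probe against DMSO at 12 h. Without the low-count filter, 1 member was called in ibuprofen bolus against DMSO at 6 h, ibuprofen bolus against DMSO at 12 h, ibufenac bolus against DMSO at 6 h and the 18 h change less the 6 h change of ibuprofen bolus from DMSO. It gave 2 in ibuprofen photocaged against DMSO at 6 h, ibufenac probe against ibuprofen probe on average and ibufenac bolus against ibuprofen bolus at 6 h, 3 in ibuprofen photocaged against DMSO on average, ibuprofen photocaged against DMSO at 12 h, ibufenac photocaged against DMSO at 12 h and ibufenac bolus against ibuprofen bolus at 12 h. It gave 4 in ibufenac probe against ibuprofen probe at 12 h, DMSO at 12 h against 6 h and the 18 h change less the 6 h change of ibufenac bolus from DMSO, 5 in ibuprofen probe against DMSO on average and ibuprofen photocaged at 18 h against 6 h. With GC content and length trends removed, 0 members were called in ibufenac bolus against DMSO at 18 h, ibufenac probe against ibuprofen probe on average, ibufenac bolus against ibuprofen bolus at 6 h and the 18 h change less the 6 h change of ibufenac bolus from DMSO. It gave 1 in ibufenac probe against DMSO at 18 h and ibufenac probe against photocaged on average, 2 in ibuprofen photocaged against DMSO at 6 h, ibufenac photocaged against DMSO at 18 h and ibufenac probe against ibuprofen probe at 12 h. It gave 3 in ibuprofen photocaged against DMSO on average, ibufenac photocaged against DMSO at 12 h and ibuprofen probe against DMSO at 6 h, 4 in ibufenac photocaged against DMSO on average. It gave 5 in DMSO at 18 h against 12 h, 7 in ibuprofen probe against DMSO on average and ibufenac probe against ibuprofen probe at 6 h, 8 in ibufenac photocaged at 18 h against 6 h. It gave 10 in ibufenac photocaged against DMSO at 6 h, 12 in ibufenac probe against DMSO at 6 h, 17 in DMSO at 12 h against 6 h, 21 in ibufenac bolus at 18 h against 6 h and ibuprofen photocaged at 18 h against 6 h. In a fit of the compared groups only, 0 members were called in ibufenac photocaged against DMSO on average, ibufenac bolus against DMSO at 18 h, ibuprofen photocaged against DMSO at 18 h, ibufenac photocaged against DMSO at 6 h, ibufenac photocaged against DMSO at 18 h, ibufenac probe against DMSO at 18 h, ibufenac bolus against ibuprofen bolus at 6 h, ibufenac probe against ibuprofen probe at 12 h, ibufenac photocaged at 18 h against 6 h, the 18 h change less the 6 h change of ibufenac bolus from DMSO and the 18 h change less the 6 h change of ibufenac photocaged from DMSO. It gave 1 in ibufenac probe against photocaged on average and ibufenac bolus at 18 h against 6 h, 2 in ibuprofen photocaged against DMSO on average, ibufenac probe against ibuprofen probe on average and DMSO at 18 h against 12 h. It gave 3 in ibuprofen photocaged against DMSO at 12 h and ibufenac probe against DMSO at 12 h, 4 in ibufenac photocaged against DMSO at 12 h, 5 in ibuprofen photocaged at 18 h against 6 h. It gave 9 in ibuprofen probe against DMSO at 12 h. Without DMSO 18 h replicate 3 and ibufenac bolus 18 h replicate 3 together, 0 members were called in ibufenac bolus against DMSO at 18 h and the 18 h change less the 6 h change of ibufenac bolus from DMSO, 1 in ibuprofen photocaged against DMSO at 12 h. It gave 2 in ibufenac probe against ibuprofen probe on average, ibufenac bolus against ibuprofen bolus at 6 h and ibufenac probe against ibuprofen probe at 12 h, 3 in ibufenac probe against DMSO at 18 h. It gave 4 in ibufenac photocaged against DMSO at 18 h and DMSO at 18 h against 12 h. With RLE scaling, 0 members were called in ibuprofen photocaged against DMSO at 6 h and the 18 h change less the 6 h change of ibufenac bolus from DMSO, 1 in ibuprofen photocaged against DMSO at 12 h and ibufenac probe against photocaged on average. It gave 2 in ibuprofen photocaged against DMSO at 18 h and ibufenac photocaged against DMSO at 12 h. With the replicate number as a block, 0 members were called in ibuprofen photocaged against DMSO at 6 h, 1 in ibufenac probe against photocaged on average.

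Without any 1 library of the compared groups, the number of members called was 0 to 1 in ibuprofen photocaged against DMSO on average, ibuprofen bolus against DMSO at 12 h, ibufenac bolus against DMSO at 6 h, ibuprofen photocaged against DMSO at 18 h and the 18 h change less the 6 h change of ibuprofen probe from DMSO, 0 to 3 in ibufenac photocaged against DMSO on average and ibufenac probe against ibuprofen probe at 12 h, 1 to 4 in ibuprofen probe against DMSO on average and 0 to 7 in ibufenac bolus against DMSO at 18 h. It was 0 in ibuprofen photocaged against DMSO at 6 h, 1 to 5 in ibufenac photocaged against DMSO at 6 h, 0 to 2 in ibufenac photocaged against DMSO at 12 h and ibufenac probe against ibuprofen probe on average and 1 to 7 in ibufenac photocaged against DMSO at 18 h. It was 2 to 6 in ibuprofen probe against DMSO at 6 h, 0 to 4 in ibuprofen probe against DMSO at 12 h, ibufenac bolus against ibuprofen bolus at 6 h and the 18 h change less the 6 h change of ibufenac bolus from DMSO, 5 to 10 in ibufenac probe against DMSO at 12 h and 1 to 6 in ibufenac probe against DMSO at 18 h. It was 0 to 5 in ibufenac bolus against ibuprofen bolus at 12 h, 1 to 3 in ibufenac probe against photocaged on average, 3 to 5 in DMSO at 12 h against 6 h and 2 to 7 in DMSO at 18 h against 12 h. It was 17 to 24 in DMSO at 18 h against 6 h, 5 to 9 in ibuprofen photocaged at 18 h against 6 h, 2 to 4 in ibufenac photocaged at 18 h against 6 h and 5 to 11 in ibufenac probe at 18 h against 6 h. It was 2 to 8 in the 18 h change less the 6 h change of ibufenac photocaged from DMSO.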
